A study of Mus musculus with 6 samples.

Results

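Expression of 10 genes of the growth hormone and insulin-like growth factor (IGF) system was followed in biliary cells of the embryonic mouse liver. They were Ghr, Igf1, Socs2, Igfals, Igfbp1, Igfbp2, Igfbp3, Igfbp4, Igfbp5 and Igfbp7, chosen by name as the 10 rows of the expression table whose identifiers map to these symbols, out of 52550 genes in all. RNA was sequenced from GFP-positive cells of CD-1 mouse embryos that carried the Sox9-GFP transgene, with 3 libraries per stage (E16.5, E18.5) whose letters A, B and C are kept as replicate names. All 6 libraries share strain and genotype, and none had another treatment. Each library came from a pool of livers that was dissociated, depleted of hematopoietic cells by magnetic sorting and then sorted for GFP. The sort rests on a reporter of Sox9, a transcription factor of the biliary lineage, so the cells are those with reporter signal rather than a lineage chosen by morphology. The sample labels give embryonic days 16 and 18, whereas the study's methods give E16.5 and E18.5, which are used here. The deposited values are TPM, a transcript abundance that the authors scaled to the length of each gene and to the library total, so that levels can be compared between genes.

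In liver, growth hormone binds its receptor on the cell surface and activates the kinase JAK2 and the transcription factor STAT5. STAT5 switches on Igf1, Igfals and Socs2, and the protein made from Socs2 in turn restrains the receptor. IGF1 and its fetal relative IGF2 act through the IGF1 receptor, and most of each circulates bound to IGF binding proteins, which lengthen its life in blood and control its access to cells. The acid-labile subunit, encoded by Igfals, joins complexes of IGF with binding protein 3 or 5.

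The sequence before the start of 4 of these genes is printed here because STAT5 and the factors that respond to insulin act on such sequence. The RefSeq promoters used here, on GRCm38.p6, covered 9 of the 10 genes at 13 start sites, Socs2 being the gene not analysed, and each stretch below is the last 130 bases before a start, on the strand of the gene. Igfals is shown for the STAT5 motif, Igfbp1 for the core of the insulin response element, Igfbp4 for the TATA box and Igfbp3 for CG dinucleotides, with each of these in capitals.
Igfals, chr17:24878101-24878230, plus strand: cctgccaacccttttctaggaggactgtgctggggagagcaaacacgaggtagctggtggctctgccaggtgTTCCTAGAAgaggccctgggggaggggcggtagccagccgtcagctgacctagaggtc
Igfbp1, chr11:7197657-7197786, plus strand: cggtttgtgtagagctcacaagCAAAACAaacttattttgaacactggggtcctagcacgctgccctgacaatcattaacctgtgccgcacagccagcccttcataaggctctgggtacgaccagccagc
Igfbp4, chr11:99041114-99041243, plus strand: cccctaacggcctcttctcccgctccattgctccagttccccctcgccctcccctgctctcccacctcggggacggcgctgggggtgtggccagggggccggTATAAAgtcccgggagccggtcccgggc
Igfbp3, chr11:7213924-7214053, minus strand: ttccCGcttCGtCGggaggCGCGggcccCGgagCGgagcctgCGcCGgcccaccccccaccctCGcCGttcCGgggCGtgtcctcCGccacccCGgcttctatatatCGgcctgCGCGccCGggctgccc

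The motifs were searched on both strands in the 250 bases before each start, in 32851 promoters. The STAT5 motif TTCNNNGAA lay in 7.02% of all promoters and, among the 9 members searched, only before Igfals, 58 bases before the start shown and 236 bases before another of its 3 starts. The motif CAAAACA, the core of the insulin response element, lay in 5.56% of promoters and among these 9 only before Igfbp1, at 108 bases. TATAAA lay in 12.4% of promoters, at 28 bases before Igfbp4 and at 188 bases before 1 of the starts of Ghr. Igfbp3 had 32 CG dinucleotides in its 250 bases, more than 95.4% of promoters, and Igfbp7 had 26, Igfbp4 22 and Igfbp5 10. Igfbp1 and Igf1 had 5 each, and the median over all promoters was 6. A match describes the letters of these windows and was not tested against binding of any factor.

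Depth and cell make-up frame the values that follow. Reads recovered from TPM and exon length came to between 13093937 and 26206374 per library, and every E18.5 library was shallower than every E16.5 library. Markers of cholangiocytes, the cells named in the labels, were present in every library. Their summed level over 11 genes at E16.5 was 961 to 2907 TPM, against 8823 to 14863 TPM at E18.5, and 10 of the 11 rose. Markers of hepatoblasts, the common precursors, were far more abundant, with 180921 to 230765 TPM over 12 genes at E16.5 but 42045 to 104313 TPM at E18.5, lowest in E18.5 replicate B, and 7 of 12 fell. Over all genes tested in the comparison described below, 26% were called higher and 5.22% lower. The counts of markers depend on the settings. Without E18.5 replicate A 3 cholangiocyte and 1 hepatoblast marker were called, without E18.5 replicate B 5 cholangiocyte markers, and without E16.5 replicate A, B or C 2, 3 and 1 hepatoblast markers. With no filter on low values 6 and 3 were called, with quantile normalization 6 and 4, and with median-of-ratios scaling 6 cholangiocyte markers. Calls over all genes also fell, from 7000 to 1472 without E18.5 replicate A. With any 1 library left out, the median log2 fold change of the cholangiocyte markers was 1.20 to 1.90, against 1.68 with all libraries. That of the hepatoblast markers was -1.66 to -0.90, against -1.26 with all libraries. Megakaryocyte markers summed to 3262 to 9453 TPM at E16.5 but 86.6 to 746 TPM at E18.5, with 8 of 8 lower. E16.5 replicate A stood apart in pancreatic acinar markers, at 2406 TPM against 14.4 to 220 TPM in the other libraries. E18.5 replicate B was highest in summed erythroid markers, at 566 TPM against 107 to 303 TPM in the other libraries. This did not hold for every marker, and Klf1 was at 7.42 TPM there against 8.03 and 8.53 TPM in E18.5 replicates A and C. In each of these lists none of the markers was at 0 in all libraries. In RNA from sorted pools, fewer cells of a type and less RNA per cell cannot be told apart. Sums of different lists also do not give shares of cells, since a few very abundant genes can fill them. Of the hepatoblast markers at E16.5, Alb alone was at 117854 to 148077 TPM and Hnf4a at 247 to 255 TPM.

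The stages were compared with limma on log2(TPM + 1), and a gene is called changed where its Benjamini-Hochberg adjusted p, taken over the 22452 genes that average 1 TPM or more, is under 0.05. Of the 10 members, 6 rose from E16.5 to E18.5 (Socs2, Igfbp5, Igfbp3, Igf1, Igfbp7 and Ghr), 0 fell and 4 did not pass the test (Igfbp2, Igfals, Igfbp4 and Igfbp1). Over all genes tested, 31.2% were called, 26% higher and 5.22% lower, so rises were common at this stage. The median log2 fold change was 1.19 over the 10 members and 0.42 over all genes tested. Median-of-ratios scaling, which sets the typical gene equal between libraries, removes this shift and leaves a median over all genes of 0.00. It called 17.1% of all genes, 6.5% higher and 10.6% lower, and under it 4 members rose (Socs2, Igfbp5, Igf1 and Igfbp7). The 6 members called on TPM as deposited had levels at E18.5 that were all above those at E16.5, as did 45% of genes tested. Only Igfbp4 had all its E18.5 levels below, as did 8.3% of genes. On TPM itself, an exact two-sided permutation test of 3 libraries against 3 cannot give a p below 0.1.

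**Figure D1:**
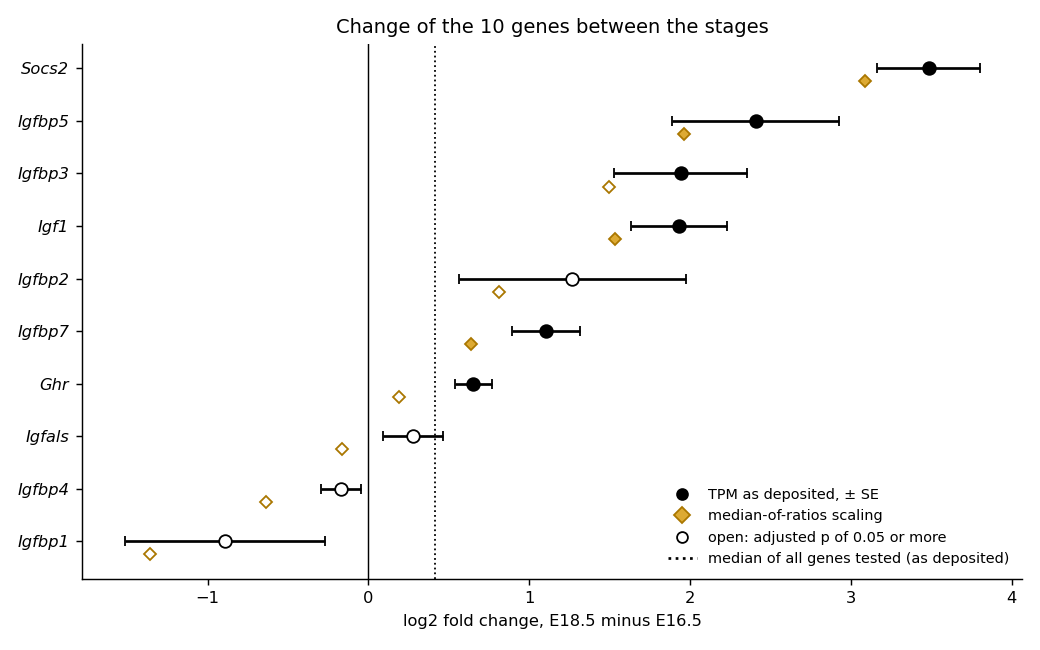
Log2 fold change of each of the 10 genes, E18.5 minus E16.5. Circles are limma estimates on TPM as deposited with standard errors, diamonds the same after median-of-ratios scaling, open symbols have an adjusted p of 0.05 or more, and the dotted line marks the median of all genes tested, 0.42. Socs2 lies farthest to the right at 3.48 and Igfbp1 farthest to the left at -0.89.

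Igf1 encodes the growth factor itself (ENSMUSG00000020053.18, chr10:87858265-87937042 on GRCm38, the build of all gene positions here, plus strand). Its level at E16.5 was 6.45, 3.21 and 2.51 TPM, in the order of replicates A, B, C that is kept throughout, and at E18.5 it was 17.6, 15.2 and 19.2 TPM. The stages did not overlap, and the lowest E18.5 library stood well above the highest E16.5 library. The mean level rose from 4.06 ± 2.10 TPM to 17.3 ± 2.02 TPM (SD, n = 3 libraries each), a ratio of 4.28. On the log2 scale the change was 1.93 (SE 0.30, limma adjusted p = 0.0105), and 98.7% of genes tested had a lower one. The lowest library, E16.5 replicate C with 198 reads, had a 95% counting interval of 2.17 to 2.88 TPM. Igf1 moved from a level above 48.4% of protein-coding genes to one above 63.6%. On average it was the lowest of the 10 genes at E18.5, with a range that overlapped that of Igfals.

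**Figure D2:**
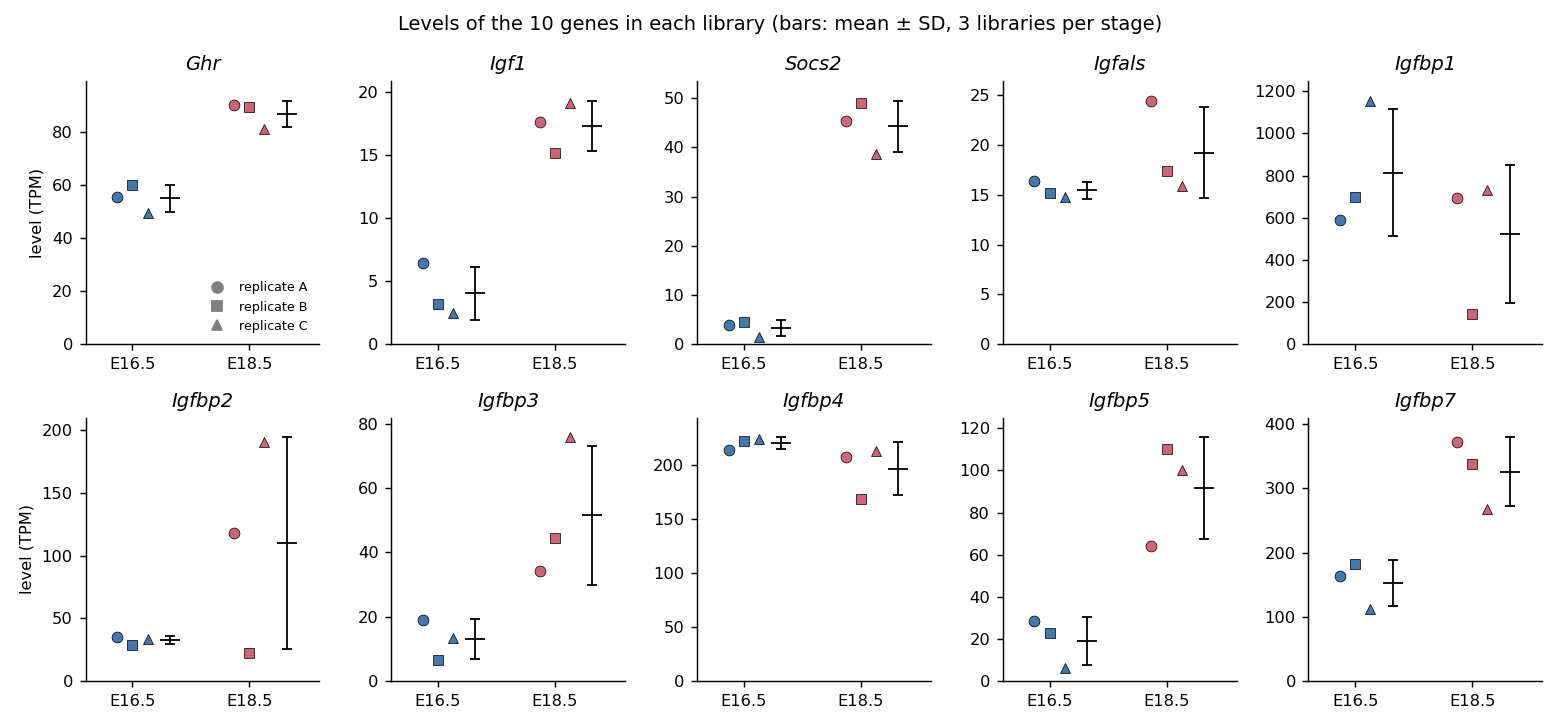
Level in TPM of each gene in each library, with E16.5 in blue, E18.5 in red, the replicate given by the symbol, and bars for mean ± SD of 3 libraries. Igf1, Ghr, Socs2, Igfbp3, Igfbp5 and Igfbp7 have no overlap between the stages, whereas Igfbp1 and Igfbp2 have a low value in E18.5 replicate B.

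Ghr, the growth hormone receptor (ENSMUSG00000055737.12, chr15:3317760-3583492, minus strand), was at 55.4, 59.9 and 49.6 TPM at E16.5, against 90.1, 89.4 and 81.0 TPM at E18.5. The 3 values within a stage lay close together, and the stages did not overlap. The mean level went from 55.0 ± 5.14 TPM to 86.8 ± 5.05 TPM, a ratio of 1.58. The log2 fold change of 0.65 (SE 0.12, limma adjusted p = 0.0133) was the smallest among the members that rose. It was not far above the median of all genes, and 69.0% of genes tested had a lower one. Under median-of-ratios scaling Ghr had a log2 fold change of 0.19 and a limma adjusted p of 0.180, so this rise depends on the scaling between libraries. It was also lost without E18.5 replicate A, at 0.63 with an adjusted p of 0.0558.

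Socs2, the feedback inhibitor of the receptor (ENSMUSG00000020027.18, chr10:95385362-95417180, minus strand), had the largest change of the 10 genes. Its level was 3.96, 4.47 and 1.42 TPM at E16.5, against 45.3, 48.9 and 38.6 TPM at E18.5. No E16.5 library came near the E18.5 range. The mean level rose from 3.28 ± 1.63 TPM to 44.3 ± 5.24 TPM, a ratio of 13.5. This was a log2 fold change of 3.48 (SE 0.32, limma adjusted p = 0.00573), higher than in 99.95% of genes tested. Igf1 and Socs2 were next to each other at the bottom of the order at E16.5, with overlapping ranges. At E18.5 Socs2 was in the range of Igfbp3 and no longer overlapped Igf1. The calls of Igf1 and Socs2 held in 16 of 16 alternative settings, with log2 fold changes from 1.52 to 2.25 for Igf1 and from 3.09 to 3.86 for Socs2.

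Ratios within a library do not depend on scaling between libraries, and those given here were picked with the values in view, so they carry no test. Per 100 TPM of Ghr, the level of Socs2 was 7.16, 7.46 and 2.86 TPM at E16.5, against 50.3, 54.7 and 47.7 TPM at E18.5. The transcripts of the inhibitor thus went from a small part of those of the receptor to a level nearer to them, in every library. Igf1 per 100 TPM of Ghr was 11.7, 5.36 and 5.05 at E16.5, against 19.6, 17.0 and 23.7 at E18.5. Set against Igf2, the fetal growth factor, Igf1 was 0.328, 0.174 and 0.114 TPM per 100 TPM at E16.5, against 1.10, 1.46 and 1.10 TPM at E18.5. Igf1 therefore stayed a minor transcript beside Igf2 at both stages. Across the 6 libraries Pearson's r of log2(TPM + 1) was 0.99 for Socs2 with Ghr and 0.96 for Socs2 with Igf1. These values only describe the libraries of both stages, and they include the difference between the stages.

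**Figure D3:**
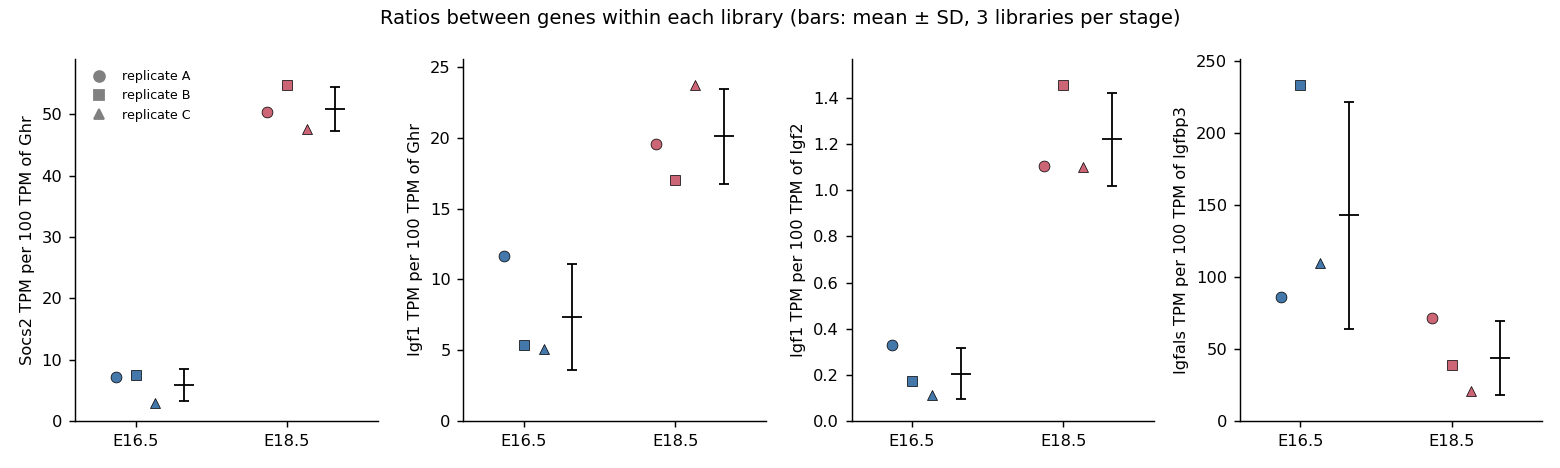
Ratios of TPM between genes within each library, for Socs2 and Igf1 per 100 TPM of Ghr, Igf1 per 100 TPM of Igf2 and Igfals per 100 TPM of Igfbp3, with bars for mean ± SD of 3 libraries. The first 3 ratios are higher in every E18.5 library than in any E16.5 library, and the last is lower.

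Igfals, the acid-labile subunit (ENSMUSG00000046070.8, chr17:24865997-24882010, plus strand), is another gene that STAT5 controls in liver, and it did not pass the test. Its level was 16.4, 15.2 and 14.7 TPM at E16.5, against 24.4, 17.3 and 15.9 TPM at E18.5. E18.5 replicate A was the highest, and E18.5 replicate C lay within the E16.5 range. The mean level was 15.4 ± 0.838 TPM at E16.5, against 19.2 ± 4.59 TPM at E18.5. Its log2 fold change was 0.28 (SE 0.19, limma adjusted p = 0.271). Its sign depended on the scaling, with -0.16 under median-of-ratios scaling and -0.12 under quantile normalization. Per 100 TPM of Igfbp3, Igfals was 86.1, 233 and 109 TPM at E16.5, against 71.5, 38.9 and 20.9 TPM at E18.5. Whether the change of Igfals differs from that of Igf1 or Socs2 was not tested.

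By mean level the 3 most abundant members at both stages were the binding-protein genes Igfbp1, Igfbp4 and Igfbp7. At E16.5 the order was Igfbp1, Igfbp4, Igfbp7, Ghr and Igfbp2, each apart from its neighbour in range, and then Igfbp5, Igfals and Igfbp3, whose ranges overlapped. Igf1 and Socs2 followed. At E18.5 the order was Igfbp1, Igfbp7, Igfbp4, Igfbp2, Igfbp5, Ghr, Igfbp3, Socs2, Igfals and Igf1. Of its 9 neighbouring pairs the ranges were apart only between Igfbp7 and Igfbp4, between Ghr and Igfbp3 and between Socs2 and Igfals.

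Igfbp3, the main carrier of IGF in the blood after birth (ENSMUSG00000020427.11, chr11:7206086-7213923, minus strand), was at 19.0, 6.51 and 13.5 TPM at E16.5. At E18.5 its level was 34.2, 44.5 and 75.8 TPM, above all E16.5 values but spread widely. The mean level rose from 13.0 ± 6.26 TPM to 51.5 ± 21.6 TPM, a ratio of 3.96. The log2 fold change was 1.94 (SE 0.41, limma adjusted p = 0.0183). The call was lost with median-of-ratios scaling (1.496, adjusted p = 0.0657) and with quantile normalization (1.58, adjusted p = 0.0536). Within each stage the order of the libraries in Igfbp3 was also that of the summed mesenchyme and stellate markers. These 12 markers came to 276, 121 and 201 TPM at E16.5, then to 265, 463 and 741 TPM at E18.5. Of the 11 tested, 3 were called higher and 0 lower, beside 26% higher and 5.22% lower over all genes tested. In other settings 1 to 5 were called higher. It was 1 with median-of-ratios scaling, with quantile normalization and without any single library except E16.5 replicate A. The summed endothelium markers without Vwf, given below, had the same order of libraries within each stage. The part of either list in the level of Igfbp3 was not tested.

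Igfbp5, a binding protein found in connective tissue and epithelia (ENSMUSG00000026185.8, chr1:72857932-72874884, minus strand), was at 28.3, 22.6 and 6.14 TPM at E16.5, against 64.2, 110 and 100.4 TPM at E18.5. E16.5 replicate C was lowest, and no E16.5 library reached the E18.5 range. The mean level rose from 19.0 ± 11.5 TPM to 91.6 ± 24.2 TPM, a ratio of 4.82, with a log2 fold change of 2.41 (SE 0.52, limma adjusted p = 0.0187). Of all genes tested, 0.984% were called and rose by 2 or more on the log2 scale, and Socs2 and Igfbp5 were among them. The call of Igfbp5 was lost without E18.5 replicate A (2.64, adjusted p = 0.0511) and without E18.5 replicate B (2.26, adjusted p = 0.0577), while the size of the change stayed similar. The order of the libraries in Igfbp5 within each stage was also that of the summed mesothelium markers. They came to 12.6, 6.53 and 4.56 TPM at E16.5, then to 47.2, 98.4 and 92.4 TPM at E18.5. All 6 mesothelium genes were called higher, beside 26% of all genes tested. Of these 6, Upk1b and Lrrn4 averaged 0.644 and 0.466 TPM at E16.5. They passed the filter on low values only through their E18.5 levels. With no filter 6 were called, and 5 without E16.5 replicate C or E18.5 replicate B. The part of mesothelium RNA in the level of Igfbp5 was not tested. The summed cholangiocyte markers had another order at both stages, with 2374, 2907 and 961 TPM at E16.5, then 12617, 14863 and 8823 TPM at E18.5. Most of that sum was Spp1, at 1278, 1767 and 469 TPM, then 10013, 12121 and 6629 TPM. Single markers differed in order within both lists, and Krt19, Cldn4 and Muc1 had the order of Igfbp5 at E16.5, though not at E18.5. Such orders of 3 libraries carry no test. The lists set beside Igfbp3 and Igfbp5 were picked from all marker lists with the values in view.

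Igfbp7 encodes a secreted protein of basement membranes and vessels that binds IGFs only weakly (ENSMUSG00000036256.13, chr5:77349240-77408041, minus strand). Its level was 164, 182 and 112 TPM at E16.5, against 373, 338 and 268 TPM at E18.5. The stages did not overlap. The mean level rose from 153 ± 36.0 TPM to 326 ± 53.6 TPM, a ratio of 2.14, with a log2 fold change of 1.10 (SE 0.21, limma adjusted p = 0.0145). The call was lost without E18.5 replicate A, where the log2 fold change was 1.001 and the adjusted p 0.0558. With median-of-ratios scaling it was kept, at 0.64 with an adjusted p of 0.0451. Igfbp7 shares 85 bp, or 7.03% of its exon length, with Polr2b on the opposite strand, and whether the counting used strand is not given in the sources used here. Of 9 endothelium markers, 1 was called higher (Emcn) and 1 lower (Vwf), beside 26% and 5.22% of all genes tested. The median log2 fold change of the 9 was 0.13. Their summed level was 241 to 469 TPM at E16.5 but 113 to 232 TPM at E18.5. Without Vwf, which megakaryocytes also express, the sums of the other 8 were 183, 113 and 130 TPM at E16.5, then 103, 198 and 202 TPM at E18.5, which overlapped. Emcn averaged only 0.796 TPM at E16.5. With median-of-ratios scaling, quantile normalization, no filter, the replicate block or any 1 library left out, 0 endothelium markers were called higher. Emcn and Vwf are named after their values were seen, and the part of endothelial RNA in the level of Igfbp7 was not tested.

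Igfbp1, a binding protein made by fetal and adult liver and controlled by insulin (ENSMUSG00000020429.7, chr11:7197782-7202546, plus strand), had the highest mean level of the members at both stages. In E18.5 replicate B it was below Igfbp7 and Igfbp4. Its level was 589, 697 and 1156 TPM at E16.5, against 691, 145 and 734 TPM at E18.5. E18.5 replicates A and C lay within the E16.5 range, and replicate B was far below every other library. The mean level was 814 ± 301 TPM at E16.5, against 523 ± 328 TPM at E18.5. The log2 fold change of -0.89 (SE 0.62, limma adjusted p = 0.288) did not pass the test and was -0.13 without E18.5 replicate B. Hepatoblast markers were also lowest in that library, and Alb, which encodes albumin, was at 30024 TPM there against 60258 and 70152 TPM in replicates A and C. Per 100 TPM of Alb, Igfbp1 was 0.4999, 0.558 and 0.780 TPM at E16.5, against 1.15, 0.483 and 1.05 TPM at E18.5, which overlapped. Summed erythroid markers were highest in E18.5 replicate B. The part of hepatoblast or erythroid RNA in the level of Igfbp1 was not tested.

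Igfbp4 (ENSMUSG00000017493.12, chr11:99041244-99054392, plus strand), whose protein mostly holds IGF away from its receptor until it is cleaved, had the smallest log2 fold change in size of the members on TPM as deposited. Its level was 214, 223 and 225 TPM at E16.5, against 208, 168 and 213.5 TPM at E18.5. All E18.5 values were below all E16.5 values, by little in replicates A and C. The mean level was 221 ± 5.38 TPM at E16.5, against 197 ± 24.7 TPM at E18.5, and the log2 fold change of -0.17 (SE 0.12, limma adjusted p = 0.303) did not pass the test. Median-of-ratios scaling gave -0.64 with an adjusted p of 0.0508. Igfbp4 and Igfbp1 followed each other over the libraries, with a Pearson's r of 0.97 (n = 6, libraries of both stages). Both were lowest in E18.5 replicate B.

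Igfbp2, an abundant binding protein of the fetus (ENSMUSG00000039323.18, chr1:72824503-72852474, plus strand), was even at E16.5 and uneven at E18.5. Its level was 35.0, 29.0 and 33.7 TPM at E16.5, against 118, 21.9 and 190 TPM at E18.5. Replicates A and C at E18.5 were several times above the E16.5 libraries, whereas replicate B was below all of them. The mean level was 32.6 ± 3.13 TPM at E16.5, against 110 ± 84.4 TPM at E18.5. Its log2 fold change of 1.27 (SE 0.71, limma adjusted p = 0.195) did not pass the test. Without E18.5 replicate B it was 2.17 with an adjusted p of 0.0124, and without E18.5 replicate C it was 0.64. The 207 reads of replicate B gave a 95% counting interval of 19.0 to 25.1 TPM. Per 100 TPM of Alb, which was also low in replicate B, Igfbp2 was 0.0297, 0.0232 and 0.0227 TPM at E16.5, against 0.195, 0.0730 and 0.271 TPM at E18.5, so that the stages did not overlap on this ratio. Alb itself was at 117854, 124817 and 148077 TPM at E16.5, against 60258, 30024 and 70152 TPM at E18.5. The ratio can therefore rise without a rise of Igfbp2, and in replicate B Igfbp2 itself was not higher.

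Igfbp1, Igfbp2, Igfbp3 and Igfbp5 form neighbouring pairs in the genome whose members point toward each other. Igfbp1 and Igfbp3 lie 3539 bp apart on chromosome 11, and Igfbp2 and Igfbp5 lie 5457 bp apart on chromosome 1, each with 0 protein-coding genes between. Whether neighbours differ in their change was not tested. Igfbp1 per 100 TPM of Igfbp3 was 3100, 10701 and 8587 TPM at E16.5, against 2022, 326 and 968 TPM at E18.5. Pearson's r over the 6 libraries was -0.37 for Igfbp1 with Igfbp3 and 0.42 for Igfbp2 with Igfbp5. Without E18.5 replicate B the log2 fold changes of Igfbp2 and Igfbp5 were 2.17 and 2.26. These ratios and correlations describe the libraries and carry no test.

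On TPM as deposited, the 6 binding-protein genes together held a similar total at both stages. It was 1049.9, 1159 and 1546 TPM at E16.5, against 1488, 828 and 1581 TPM at E18.5. A total, unlike a share, depends on the scaling between libraries, and it was not computed under other scalings. The mean total was 1252 ± 261 TPM and 1299 ± 411 TPM (exact permutation p = 0.9), which leaves differences of the size of this spread undetected. Igfbp1 held 56.1%, 60.1% and 74.8% of the total at E16.5 and 46.4%, 17.5% and 46.4% at E18.5, lower in every E18.5 library. Igfbp7 held 15.6%, 15.7% and 7.27% at E16.5 and 25.1%, 40.8% and 16.9% at E18.5. The shares of Igfbp3, Igfbp5 and Igfbp7 were higher in every E18.5 library than in any E16.5 library. For each of these 4 genes the exact two-sided permutation p was 0.1, the smallest this design allows, and 0.15 after Benjamini-Hochberg adjustment over the 6 shares, so no share passed a threshold of 0.05.

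The mean share of Igfbp1 differed by -26.9 percentage points at E18.5, from 63.7% ± 9.81 to 36.8% ± 16.7 (SD, n = 3 libraries, exact permutation p = 0.1). Without E18.5 replicate B, the library lowest in hepatoblast markers, the difference was -17.2 percentage points, and the part of hepatoblast RNA in these shares was not tested. Igfbp7 went from 12.9% ± 4.84 to 27.6% ± 12.1, Igfbp5 from 1.68% ± 1.17 to 7.99% ± 4.72, and Igfbp3 from 1.081% ± 0.650 to 4.16% ± 1.64. The shares of Igfbp2 (2.67% ± 0.595 and 7.53% ± 4.70, exact permutation p = 0.2) and Igfbp4 (18.0% ± 3.11 and 15.9% ± 3.82, exact permutation p = 0.5) overlapped between the stages. With Igfbp7 left out of the total, an alternative chosen after seeing the data, the share of Igfbp2 was higher in every E18.5 library, by 6.75 percentage points on average (exact permutation p = 0.1). Shares within a library add to 100, so a lower share of Igfbp1 raises the others, and these results are not independent of each other. Igf1 per 100 TPM of the binding-protein total was 0.615, 0.277 and 0.162 TPM at E16.5, against 1.19, 1.84 and 1.21 TPM at E18.5.

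**Figure D4:**
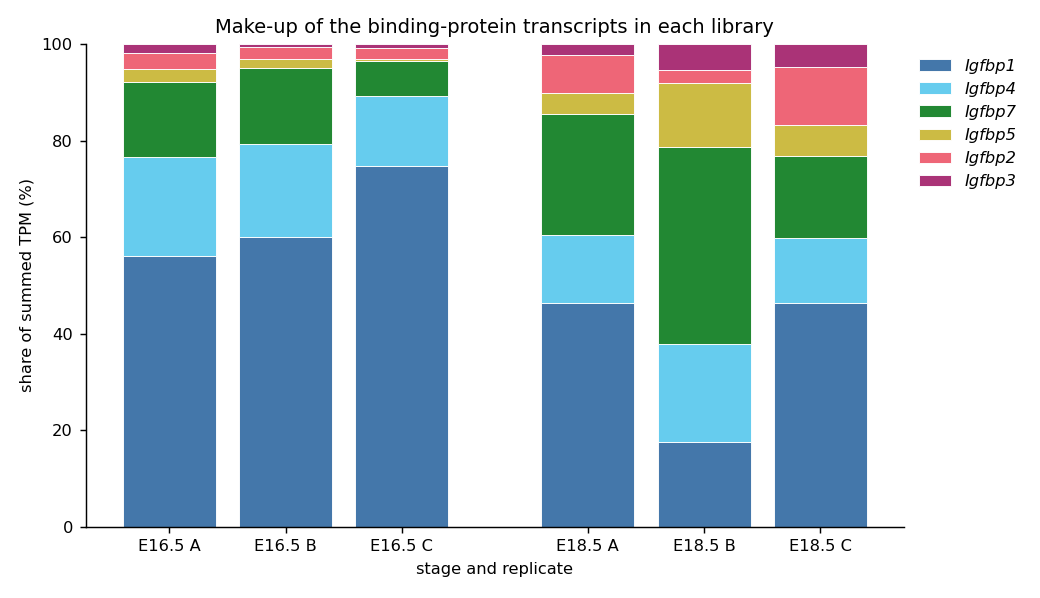
Share, in percent, of the summed TPM of 6 IGF binding-protein genes held by each gene in each library. Igfbp1 makes up most of every E16.5 bar, from 56.1% to 74.8%, and under 50% of every E18.5 bar.

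A wider list of 51 other genes of the growth hormone and IGF systems was examined for comparison, of which 41 passed the filter on low values. Of these 16 rose, 2 fell and 23 did not pass the test, where 26% of all genes tested were called higher and 5.22% lower. The median log2 fold change was 0.32, against 0.42 over all genes tested. With median-of-ratios scaling 7 rose and 10 fell, and with quantile normalization 6 rose and 8 fell, so the balance of directions in this list depends on the scaling. With no filter on low values 13 of 50 rose and 1 fell, where 3468 of 43310 genes in all were called higher and 814 lower. Gh, the gene of growth hormone itself, was listed at 0 in all libraries.

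Among ligands and receptors, Igf1r, the receptor through which IGF1 acts, rose from a mean of 77.9 TPM to 187 TPM, a log2 fold change of 1.28 (SE 0.20, limma adjusted p = 0.0106). Its level was 87.4, 89.8 and 56.6 TPM at E16.5, against 187, 209 and 165 TPM at E18.5, and the call held in 16 of 16 alternative settings. Prlr, the prolactin receptor, rose from 0.418 TPM to 3.70 TPM (1.61, adjusted p = 0.0369), a low gene whose call held in 6 of 15 settings. Prlr passed the filter on low values only through its E18.5 levels, and with no filter its call was lost. Insr, the insulin receptor, was at 109 TPM and 113 TPM (0.06, adjusted p = 0.692). Igf2 was far more abundant than any member, at 2003 TPM and 1460 TPM on average (-0.49, SE 0.22, adjusted p = 0.131). The call of Igf2 did turn to lower with limma voom on recovered reads (-0.63, adjusted p = 0.0349).

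In growth hormone signalling 14 genes were tested, with 3 higher, 2 lower and a median log2 fold change of 0.08, beside 26% higher and 5.22% lower over all genes tested. With median-of-ratios scaling, and also with quantile normalization, 0 were higher and 4 lower. Cish, another feedback inhibitor induced by STAT5, rose from 14.6 TPM to 32.2 TPM (1.13, SE 0.25, limma adjusted p = 0.0210), a call that held in 11 of 16 settings. The lower genes were Ptpn11 (-0.91, adjusted p = 0.0257), which encodes the phosphatase SHP2, and Jak2 (-0.79, adjusted p = 0.0489), the kinase of the receptor, and both are named here after their values were seen. The call of Ptpn11 held in 12 of 16 settings and that of Jak2 in 7 of 16, and neither held without E16.5 replicate A, E16.5 replicate C, E18.5 replicate A or E18.5 replicate C. In IGF receptor signalling 5 of 12 rose and 0 fell, with a median of 0.29, beside the same shares over all genes. However, 2 rose and 3 fell with median-of-ratios scaling, and 2 rose and 2 fell with quantile normalization. Grb14, an adaptor that inhibits the insulin receptor, rose from 21.5 TPM to 44.6 TPM (1.04, adjusted p = 0.0105).

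Among the other genes of IGF binding and release, 5 of 7 rose, 0 fell and the median log2 fold change was 1.04, beside the 26% called higher over all genes. Some of the 7, among them Htra1 and Stc1, averaged under 1 TPM at E16.5. They passed the filter on low values only through their E18.5 levels, so this count and median favour rises. With no filter on low values 4 of 10 rose and the median was 0.91. With the replicate block or median-of-ratios scaling 4 of 7 rose. With quantile normalization, or without E16.5 replicate B, E18.5 replicate A or E18.5 replicate B, 3 of 7 rose. Pappa, a protease that cleaves binding protein 4 and so frees IGF, rose from 4.33 TPM to 14.6 TPM (1.55, SE 0.21, limma adjusted p = 0.00890). Igfbp6, a binding protein that prefers IGF2, rose from 3.34 TPM to 11.1 TPM (1.46, SE 0.27, adjusted p = 0.0139). The calls of Pappa, Igfbp6 and Grb14 held in 16 of 16 settings. Htra1, a protease of binding proteins, rose from 0.765 TPM to 3.02 TPM (1.18, adjusted p = 0.0194), a call that held in 11 of 15 settings. Stc1, an inhibitor of the protease made from Pappa, rose from 0.395 TPM to 1.87 TPM (1.04, adjusted p = 0.0391), and held in 5 of 14. Of the 3 genes that bind the mRNA of Igf2, 1 rose and 0 fell, whereas 0 rose and 2 fell with either median-of-ratios scaling or quantile normalization.

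**Figure D5:**
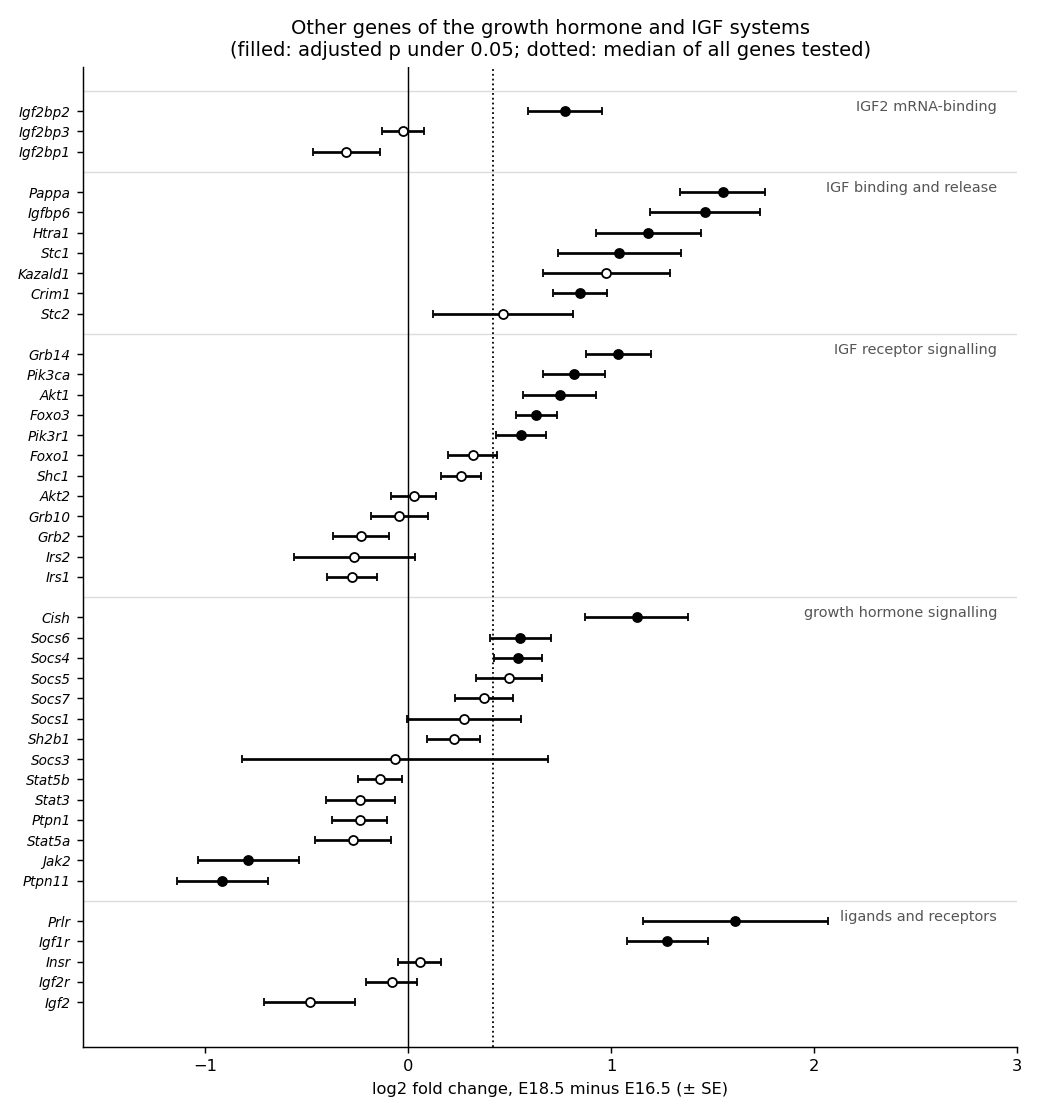
Log2 fold change with standard error, E18.5 minus E16.5, for the 41 tested genes of the wider list, grouped by role. Filled circles have an adjusted p under 0.05 and the dotted line is the median of all genes tested. In the binding and release group 5 of 7 circles are filled, all to the right of 0, and Ptpn11 and Jak2 are the filled circles on the left.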

How the data were processed

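RNA was sequenced from 6 libraries, 3 per stage, each from a pool of livers. The authors checked reads with FastQC 0.11.7, trimmed them with Trimmomatic, used HISAT2 2.1.0 for alignment to GRCm38 and HTSeq-count 0.5.4p3 for counts per gene on GENCODE, and turned these counts into the deposited TPM. The TPM sum to 1000000 in each library.

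A later GENCODE release on GRCm38 gave names, exon lengths and positions and held 52403 of the 52550 identifiers. Reads were recovered from TPM and exon length. They were whole within 0.01 for 100% of 180057 nonzero values of genes with the same identifier version, which included 9 of the 10 members, all except Igfals. Clopper-Pearson 95% intervals cover counting error only.

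The test between stages was limma (version 3.58.1, R version 4.3.3, eBayes with a trend) on log2(TPM + 1), which understates the change of low genes. Genes averaging under 1 TPM were left out, and p-values were adjusted by Benjamini-Hochberg. Exact permutation tests were run in Python 3.11.15. The fit was tested on simulated data. Libraries of a stage are separate pools, and p-values measure the spread between them. Whether the replicate letters pair the samples is not given in the sources used here, and they were not taken as pairs.

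Every member is named. Of the wider list, called genes whose log2 fold change is 1 or more in size are named, with Igf2, Igf1r and Insr. Ptpn11 and Jak2, the 2 genes called lower, were named after their values were seen. Members and lists were chosen with earlier results of these data known. Alternatives were a pseudocount of 0.1, no filter or one at an average of 5 TPM, quantile normalization, median-of-ratios scaling, values rescaled without haemoglobin and structural RNA, eBayes without trend or robust, the letters as a block, limma voom on recovered reads, and leaving out each library. RefSeq promoters of GRCm38.p6 gave the sequences.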

Additional observations from a re-analysis of the deposited data

How the results depend on the processing

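The count of changed genes depended on the settings. Against 7000 over all genes, 4282 were called with no filter on low values, 3818 with median-of-ratios scaling (1450 higher, 2368 lower), 3796 with quantile normalization, and 1472 to 5686 when 1 library was left out, fewest without E18.5 replicate A (1472) and E18.5 replicate B (2917). With 1 library left out, 3 to 6 of the 10 members and 6 to 14 of the wider list were called, against 6 and 18. Without E18.5 replicate B the 6 called members held Igfbp2 in place of Igfbp5. The 3 members called without E18.5 replicate A were Igf1, Igfbp3 and Socs2, and the wider list fell to 6 without that library and to 11 without E18.5 replicate B. Median-of-ratios scaling called 4 members, quantile normalization 5, and each other setting 6.

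Of 159 log2 fold changes of members under alternatives, 2 reversed, both of Igfals, to -0.16 with median-of-ratios scaling and -0.12 with quantile normalization. Insr reversed to -0.41 under median-of-ratios scaling, to -0.14 under quantile normalization and to -0.076 with limma voom. The cause was not tested.

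With 1 library left out, the differences in share ranged from -31.7 to -17.2 percentage points for Igfbp1, 2.61 to 7.30 for Igfbp2, 2.46 to 4.004 for Igfbp3, -4.31 to -0.897 for Igfbp4, 3.65 to 8.15 for Igfbp5 and 8.14 to 20.1 for Igfbp7. Leaving Igfbp7 out of the total, an alternative chosen after seeing the data, moved that of Igfbp3 from 3.07 to 4.72, of Igfbp2 from 4.86 to 6.75 and of Igfbp5 from 6.31 to 9.98, and turned that of Igfbp4 from -2.11 to 2.20.

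With the replicate block, 7314 genes, 6 members and 15 of the wider list were called. Libraries of the same letter had correlated deviations of -0.04, 0.08 and 0.14. E16.5 replicates B and C were closest to their own letter, and E16.5 replicate A was not. These weak correlations do not settle whether the letters are pairs, and the letters were not taken as pairs. With 3 libraries per stage, differences of the size of the spread of Igfbp1 or Igfbp2 were not detectable.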

Other observations

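For each member, the gene with the most similar course over the 6 libraries was sought among 15370 genes averaging 5 TPM or more, by Pearson's r of log2(TPM + 1). Each r describes libraries of both stages, which also differ in depth, and carries no test. For Igfbp1 it was Cxcl1, a chemokine, with an r of 0.993, and only 64 genes reached 0.95. For Igfbp3 it was Thbs2, a matricellular protein of fibroblasts, with an r of 0.9996 and 142 genes at 0.95 or more. Igfbp2 had 44 such genes, with the small nucleolar RNA Snord49a first at 0.987, Igfbp4 had 113, with Gm43189 first at 0.996, and Igfals had 12, with Actr6 first at 0.987.

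The remaining members had far more such genes. Socs2 had 3082 genes at 0.95 or more, with Slc6a6, the taurine transporter, first, Ghr had 3069, with Strn3 first, and Igfbp7 had 3173, with Ccdc57 first. Igfbp5 had 2034, with Frmd6 first, and Igf1 had 930, with Gm48706 first.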
